A study of Brassica rapa subsp. pekinensis with 2 samples.

Results

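Among the genes that differed between fertile and sterile flower buds of Chinese cabbage, 11 encoded calcium-binding proteins or a calcium-dependent kinase. They were chosen by the KEGG annotation of genes that the authors had selected on the expression difference between these buds. The rule took the genes listed under plant-pathogen interaction, a KEGG pathway, in the authors' deposited pathway table whose symbol or Arabidopsis code stands for such a protein. All 11 genes of that pathway entry met the rule, out of 41019 genes with Bra identifiers in the expression table. The authors' selection held 1012 genes, with q-values of up to 0.000999 between the same libraries, so the differences below are descriptions and not tests. The 11 genes carried 9 Arabidopsis codes, because AT3G03430 stood beside 3 of them.

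The study compared buds of AB02, a genic male sterile AB line of Brassica rapa subsp. pekinensis in which sterility is inherited through multiple alleles. An AB line segregates into fertile and sterile plants within the same family. The 2 groups were fertile buds and sterile buds, with 1 RNA sequencing library each, both grown from vernalized seed in a greenhouse. The labels give neither plant age, bud stage nor the number of plants in a library, so no difference here has a replicate check.

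Calcium ions carry signals in plant cells, where a brief rise in free calcium is read by proteins that bind it through EF-hand motifs. Calmodulin-like proteins and the short polcalcins of pollen change shape on binding and act through partner proteins. Calcium-dependent protein kinases carry EF-hands and a kinase domain in the same chain and phosphorylate their targets directly. In a growing pollen tube a steep calcium gradient at the tip guides tube growth, and pollen holds its own set of these proteins. KEGG places calcium-dependent kinases and calmodulin-like proteins in the calcium branch of its plant immunity map, so genes used in pollen also appear under that heading.

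Of the 11 genes, 10 were lower in sterile buds and 1, CML41, was higher, counting a gene when log2(RPKM + 1) differed by at least 1. RPKM is a read number divided by gene length and by the library total. Across the 27940 genes that reached an RPKM of 1 in either library, 14.5% were lower and 11.5% were higher by the same measure. Lower genes were thus 55.6% of the differing ones, and 65.8% when the sterile library was rescaled by the median ratio. The authors' deposited table held 3.24% of these genes as lower and 0.379% as higher. Among the 1012 genes of the authors' deposited table, from which the members come, 89.5% were lower. The median difference of the members, sterile minus fertile, was -6.27 on the log2(RPKM + 1) scale, against 0.17 over the 27940 genes and -4.51 over the 1012 genes. Over the 906 listed genes that were lower it was -4.84. For a gene at 0 in sterile buds, this difference is set by its fertile RPKM, which the same reads make higher in a shorter gene. Most members are short, so these medians do not show that they fell further than other listed genes. With genes at 0 set to the level of 3 reads, the members' median log2 ratio was -4.21. That median was not computed for the 1012 genes. The direction of each member is fixed by its place in the authors' list, so these counts carry no weight of their own.

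Reads behind each value were recovered from the deposited numbers as whole reads and were settled for each member. The 10 lower genes together had 1170 reads in fertile buds, against 53 in sterile buds. Of these genes, 7 had 0 reads in sterile buds against 714 in fertile buds. At the fertile level, 621 reads would have been found for these 7 genes in the sterile library. Among the 906 genes that the authors listed as lower, 52.4% likewise had 0 reads in sterile buds, and so did 8.03% of the 27940 genes. In bulk buds, fewer cells of a type and less RNA per cell cannot be told apart.

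**Figure D1:**
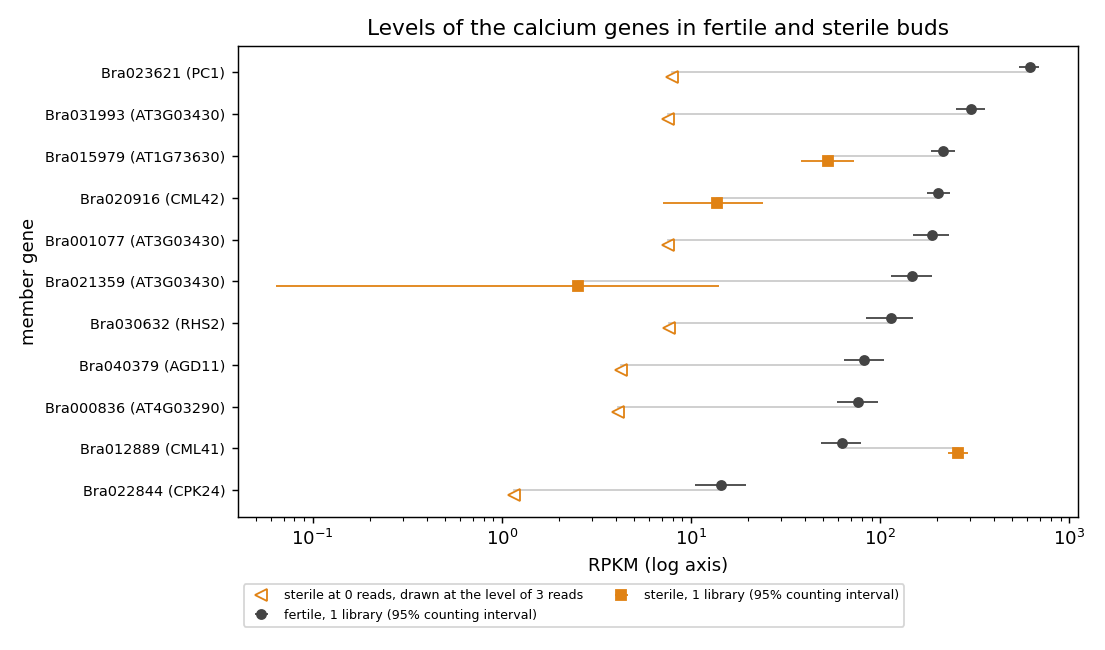
RPKM (log axis) of each of the 11 calcium genes, 1 row per gene, in the fertile library (circles) and the sterile library (squares), with 95% Poisson counting intervals. Open triangles mark genes with 0 reads in sterile buds, drawn at the RPKM of 3 reads. CML41 has its sterile value to the right of its fertile value, and the other 10 genes have it to the left.

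The short calcium-binding proteins of the polcalcin type had the highest summed level among the protein classes in fertile buds, 1253 RPKM against 753 RPKM for the calmodulin-like genes, and not in sterile buds. They were PC1 and the 3 genes of code AT3G03430, and together they had 556 reads in fertile buds but 1 read in the sterile library. Per read, this was a ratio of 483, with a 95% Clopper-Pearson counting interval from 86.4 to 19126.5. Of the RPKM summed over all genes, they made up 0.1% in fertile buds and 0.000202% in sterile buds. Their summed level in the sterile library was 2.53 RPKM, against 325 RPKM for the calmodulin-like genes.

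Bra023621 (PC1, AT5G17480) is named in Arabidopsis as a pollen calcium-binding protein. It stood at 617 RPKM in fertile buds (267 reads) and at 0 in sterile buds. It ranked 257th of 41019 genes in the fertile library. Set against 3 reads, the sterile level was 77.4-fold lower, and the counting interval began at 62.5-fold. A value against 3 reads takes the fertile reads as exact, here and below, while the interval also counts their error. The authors' deposited table gave PC1 a log2 fold change, fertile over sterile, of 8.33 with a q-value of 1.29e-30. PC1 was 2.05 times as abundant per length in fertile buds as the next member, with a counting interval from 1.66 to 2.53.

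The 3 genes of code AT3G03430, which encodes a polcalcin in Arabidopsis, differed among themselves in level. Bra031993 stood at 301 RPKM in fertile buds (137 reads) and at 0 in sterile buds. Bra001077 stood at 187 RPKM in fertile buds (85 reads) and at 0 in sterile buds. Bra021359 stood at 147 RPKM in fertile buds (67 reads) and at 2.53 RPKM in sterile buds, which was 1 read. All of them were thus high in fertile buds and at or next to 0 in sterile buds. Against 3 reads, the sterile level of Bra031993 was 39.7-fold lower and that of Bra001077 was 24.6-fold lower. The lower ends of their counting intervals were 31.9-fold and 19.6-fold. Bra021359 was 58.2-fold lower, with an interval from 10.1 to 2335. Because it rests on 1 read, that interval is wide and takes in the bounds of the other copies.

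In fertile buds Bra031993 exceeded Bra021359 by 2.04 times, and the counting interval of 1.52 to 2.78 lay above equality. Bra001077 and Bra021359 differed by 1.27 times, with an interval from 0.91 to 1.77 that included equality. How the authors assigned reads that match several copies is not given in the sources used here, so the split between these 3 genes is uncertain. Their sum does not depend on a split among them if each read was counted once. Whether shared reads were counted for each copy or discarded is not known, and either would change the sum and its interval. It came to 289 reads in fertile buds against 1 in sterile buds, a 251-fold difference (interval 44.7 to 9958).

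Calmodulin-like proteins made up 6 of the members, 5 lower and 1 higher in sterile buds. Unlike the polcalcin type, they kept a measurable sum in sterile buds, 325 RPKM against 753 RPKM in fertile buds. CML41 alone gave 258 RPKM of the former. Of the 5 lower genes, 3 were at 0 reads in sterile buds and 2 were not.

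Bra030632 (RHS2, AT1G05990) carries a symbol for root hair specific expression in Arabidopsis and encodes a calmodulin-like protein. It stood at 114 RPKM in fertile buds (51 reads) and at 0 in sterile buds, and was 14.8-fold lower against 3 reads. Bra040379 (AT3G07490) carries the symbol AGD11, of the ARF-GAP family, although the Arabidopsis code also stands for a calmodulin-like protein that binds a peroxisomal protease. It stood at 82.6 RPKM in fertile buds (67 reads) and at 0 in sterile buds, and was 19.4-fold lower against 3 reads. Bra000836 (AT4G03290) encodes a calmodulin-like protein and stood at 76.3 RPKM in fertile buds (64 reads) and at 0 in sterile buds. Against 3 reads it was 18.5-fold lower. The lower ends of the counting intervals of these 3 genes were 11.6-fold, 15.4-fold and 14.7-fold. Neighbours in the order of these levels in fertile buds did not differ beyond counting error, with ratios of 1.38 (interval 0.937 to 2.01) and 1.08 (interval 0.756 to 1.55).

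The other 2 lower calmodulin-like genes were still detected in sterile buds. Bra020916 (CML42, AT4G20780), linked in Arabidopsis to trichome branching and to defence against insects, stood at 203 RPKM in fertile buds (203 reads) and at 13.8 RPKM in sterile buds (12 reads). It was 14.7-fold lower (interval 8.24 to 28.9). Bra015979 (AT1G73630), a calmodulin-like protein, stood at 215 RPKM in fertile buds (186 reads) and at 53.2 RPKM in sterile buds (40 reads). It was 4.04-fold lower (interval 2.86 to 5.84). In fertile buds these genes were at nearly the same level per length, with a ratio of 1.06 and an interval from 0.864 to 1.3. In sterile buds Bra015979 exceeded CML42 by 3.85 times, and the interval of 1.98 to 8.07 lay above equality. Although matched in fertile level, these genes therefore differed in the level that remained in sterile buds. Bra001077, within 1.08 times of CML42 in fertile buds (interval 0.838 to 1.41), had 0 reads in sterile buds. Its counting interval there reached 9.34 RPKM, against an interval of 7.13 to 24.1 RPKM for CML42. Bra001077 and CML42 were thus not separated in sterile buds, and the level of Bra001077 also depends on the uncertain split among copies.

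Bra012889 (CML41, AT3G50770) went the other way. In Arabidopsis this calmodulin-like protein acts at plasmodesmata, the channels between cells, where it promotes callose deposition during the immune response. It stood at 62.5 RPKM in fertile buds (69 reads) and at 258 RPKM in sterile buds (248 reads). Its level was 4.13 times higher in sterile buds, with an interval from 3.15 to 5.48, and its difference was 2.03 on the log2(RPKM + 1) scale. Rescaled by the median ratio, which lowers each sterile log2 level by about 0.2, the difference was 1.83. The median difference of the 106 genes that the authors listed as higher was 2.70. The authors' deposited table gave it a log2 fold change, fertile over sterile, of -1.81 with a q-value of 4.13e-17. The authors' log2 fold changes lay a median of 0.239 above the log2 RPKM ratios of the listed genes above 0 in both libraries. In fertile buds CML41 was the second lowest member, and in sterile buds the highest. The order of CML42 and CML41 was reversed between the libraries. CML42 exceeded CML41 by 3.24 times in fertile buds (interval 2.46 to 4.33), and CML41 exceeded CML42 by 18.7 times in sterile buds (interval 10.5 to 36.8).

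The kinase was the least abundant member. Bra022844 (CPK24, AT2G31500) is a calcium-dependent kinase of Arabidopsis pollen tubes, where it acts with another kinase of its family to inhibit a potassium channel. It stood at 14.4 RPKM in fertile buds (43 reads) and at 0 in sterile buds. Against 3 reads it was 12.5-fold lower, and the lower end of the counting interval was 9.71-fold. In fertile buds CML41, the next member above it, exceeded it by 4.33 times (interval 2.92 to 6.5), and PC1 by 42.8 times (interval 30.9 to 60.5). In the authors' deposited table its q-value of 7.49e-06 was the largest of the 11.

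**Figure D2:**
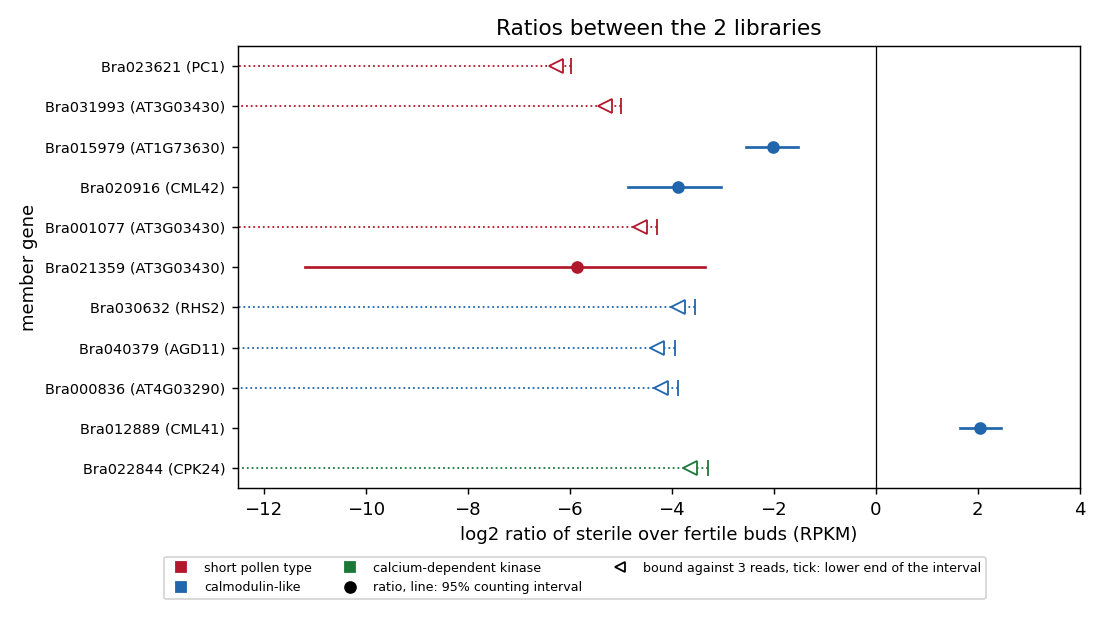
Log2 ratio of sterile over fertile buds for the 11 calcium genes, with 1 library per group, ordered by fertile level. Circles with lines are ratios with 95% Clopper-Pearson counting intervals, open triangles are bounds set against 3 reads for genes at 0 in sterile buds, and ticks are the ends of the intervals nearest to equality. The bounds follow the number of reads in fertile buds, and CML41 lies above 0.

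How far a gene at 0 could be shown to be lower was limited by length and depth. A level of 3 reads in the sterile library was worth 7.97 RPKM in PC1, 7.59 RPKM in the AT3G03430 genes and 1.16 RPKM in CPK24. For CPK24, which had 43 reads, no bound above 12.5-fold could be reached. The order of the bounds therefore follows the reads in fertile buds and is no order of the true differences.

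The rule for choosing the members used protein class and not length itself, but length goes with class, so the lengths are a description. Recovered gene lengths were short in all members but the kinase. They ran from 240 bp in PC1 and 252 bp in each AT3G03430 gene to 612 bp in CML41, and the kinase CPK24 had 1653 bp. RHS2, at 249 bp, was as short as the polcalcin type, while the other calmodulin-like genes lay between 450 and 612 bp. The median was 450 bp over the 11 genes and 1028 bp over the 1012 genes of the authors' deposited table, of which 4.94% were at 252 bp or less. Lengths rest on steps of 3 bp, as in coding sequence, and would be shorter by that factor with steps of 1 bp. In codons, PC1 came to 80, the AT3G03430 genes to 84 and CPK24 to 551, the stop codon included.

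**Figure D3:**
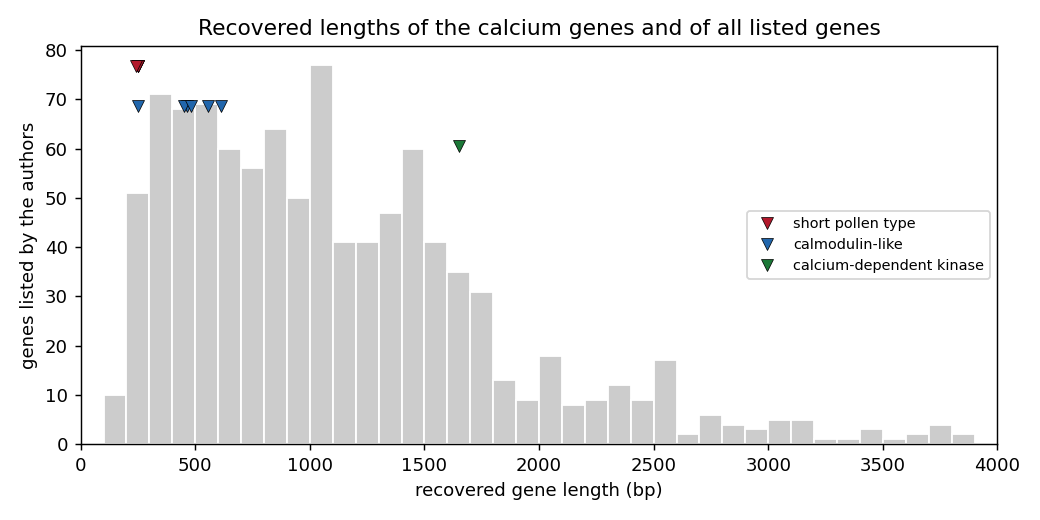
Recovered lengths of the 1012 genes of the authors' deposited table as a histogram (bp on the horizontal axis, number of genes on the vertical axis, bins of 100 bp), with 6 genes longer than 4000 bp outside the axis. Triangles mark the 11 calcium genes by protein class at heights chosen for display. Only the kinase, at 1653 bp, lies above the median of 1028 bp.

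In relation to all genes, most members were abundant in fertile buds, which their selection favoured. Listed genes at 0 in sterile buds had at least 27 reads in fertile buds, and 1 such read was worth 2.31 RPKM in PC1. The ranks in fertile buds are therefore descriptions. PC1 lay above 99.1% of the 27940 genes in the fertile library, CML42 above 96.2% and CML41 above 86.8%. CPK24 lay above 59.5%. In the order of levels in fertile buds, PC1 lay above Bra031993, Bra031993 above Bra015979 (1.4 times, interval 1.12 to 1.76) and CML41 above CPK24 beyond counting error. The other neighbours in that order, from Bra015979 down to CML41, differed by 1.06 to 1.38 times, each with an interval that included equality. In sterile buds, CML41 lay above 97% of these genes, Bra015979 above 84.2% and CML42 above 58%. Of the RPKM summed over all genes, the 11 members made up 0.161% in fertile buds and 0.0262% in sterile buds.

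**Figure D4:**
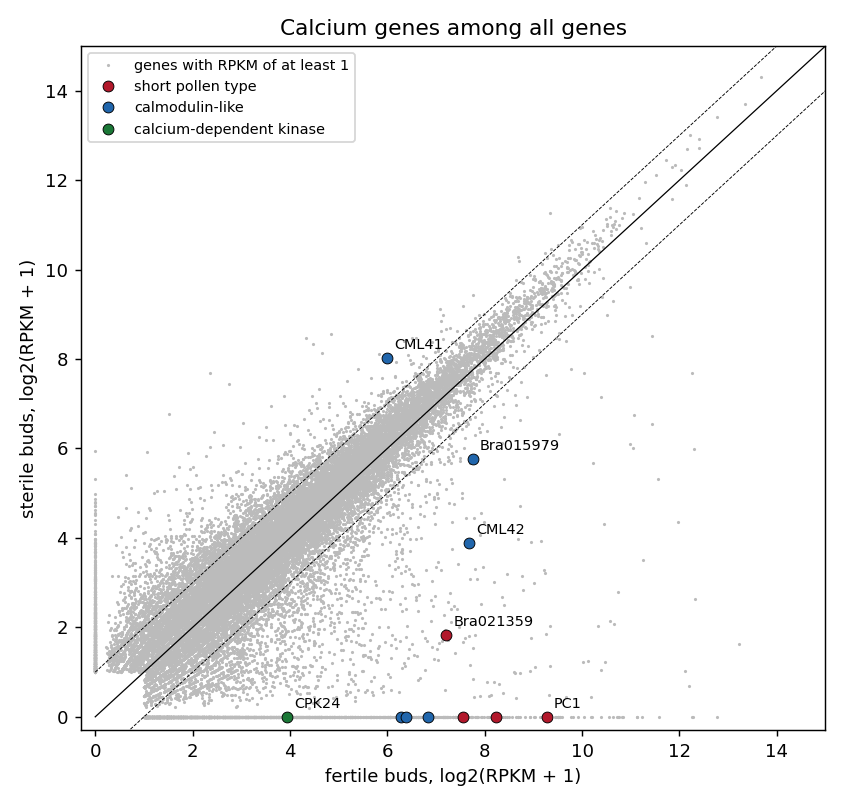
Levels of 27940 genes in fertile (horizontal) and sterile (vertical) buds as log2(RPKM + 1), 1 library each, with the calcium genes coloured by protein class. The solid line marks equality and the dashed lines a difference of 1. Of the members, 7 lie on the horizontal axis at 0 in sterile buds, and CML41 lies above the upper dashed line.

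The genes most like a member in both libraries were sought among the 214 other genes with a name in the deposited tables, by distance in the plane of both log2(RPKM + 1) levels. With 2 libraries this likeness is weak. Nearest to PC1 were Bra032390 (AT3G28980) at 589 RPKM, Bra017977 (AT3G49540) at 584 RPKM and Bra023613 (AT5G17340) at 580.2 RPKM in fertile buds, each at 0 in sterile buds. Nearest to CPK24 were Bra019455 (GH9A4), a glycosyl hydrolase gene, Bra013168 (HA6), a plasma membrane proton pump gene, and Bra026583 (AT2G02720), a pectate lyase gene, at 14.4, 14.4 and 14.5 RPKM in fertile and 0 in sterile buds. CML41 had no close neighbour among these named genes, but few of them could lie near it. Of the 143 genes of the pathway table, 14 were higher in sterile buds, CML41 among them. The other 82 named genes came from a list of genes found in fertile buds only. Listed genes without a name were not searched. The nearest, Bra005241 (DOGT1), a glucosyltransferase gene, had 40.9 RPKM in fertile buds, 217 RPKM in sterile buds and a distance of 0.65. The distances of the genes nearest to PC1 and CPK24 were 0.068 and 0.00019.

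No other branch of the immunity map was represented, since 0 genes of the pathway entry encoded other kinds of protein. In the authors' deposited table, the entry counted 9 of 148 Arabidopsis genes of the pathway, with p = 0.0619 before and 0.805 after correction, and it ranked 9th of 76 pathways by p-value. Each of the 11 genes stood in this pathway alone, as did 63 of the 143 genes of the pathway table (44.1%). A search of the other named genes by symbol and description for calcium, calmodulin, EF-hand and related families found 1 further gene. Bra001103 (AT3G04360), whose description mentions a calcium- and lipid-binding region, stood at 35.3 RPKM in fertile buds (76 reads) and at 0 in sterile buds. Against 3 reads it was 22-fold lower (lower end of the interval 17.5-fold). Names were paired with listed genes alone, so calcium genes that differed less are not analysed here.

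Bra015979 and CML41 lay close to the smallest RPKM ratio among listed genes. That smallest ratio, over listed genes above 0 in both libraries, was 4.03, against 4.04 for Bra015979 and 4.13 for CML41. Unlisted genes under that ratio, with at least 50 RPKM in both libraries, were searched for the nearest. It was the unnamed gene Bra031935, with 876 RPKM in fertile buds against 219.7 RPKM in sterile buds, which is 3.99 times. The ratio alone did not set the list. Bra001076 had a larger ratio, with 41.9 RPKM in fertile buds against 8.93 RPKM in sterile buds, and was not listed.

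Genes with the identifiers next to those of the members differed about as often as all genes did. Of 22 such genes, 19 reached an RPKM of 1 in either library, 3 of them lower and 2 higher, which is 15.8% lower against the 14.5% of all genes. None of the 22 was in the authors' deposited table. Each of the 3 lower ones stood beside a lower member. Bra001076, next to Bra001077, had 41.9 RPKM in fertile buds against 8.93 RPKM in sterile buds. Bra030631, next to RHS2, had 4.01 against 0.231 RPKM, and Bra040378, next to Bra040379, had 4.40 RPKM against 0. The 2 higher ones also stood beside lower members. They were Bra015978, next to Bra015979, with 5.55 RPKM in fertile buds against 14.6 RPKM in sterile buds, and Bra000835, next to Bra000836, with 3.34 against 9.61 RPKM. The other 14 differed by less than 1 on the log2(RPKM + 1) scale.

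Markers of pollen and of other bud cells could be looked up only among genes that the authors had already listed as different, so the differences of those found were fixed by that choice and are given as levels alone. In a list of 5 late pollen and pollen tube codes, 4 were named here in 10 genes, and these summed to 2416 RPKM in fertile buds, against 0.463 RPKM in sterile buds. Of the 10 genes, 9 were at 0 in sterile buds, among them both copies of PPME1, a pollen pectin methylesterase, and the 4 copies of PGA4, a polygalacturonase. In a list of 15 tapetum and exine codes, the tapetum being the cell layer that feeds pollen, 1 was named here, Bra003795 (CYP98A8), with 1200 RPKM in fertile buds and 50.3 RPKM in sterile buds. Markers of photosynthetic tissue and of pistil and ovule had 0 named genes, so the bud label could not be checked against other tissues. The part of a differing cell makeup in the members' differences was not tested.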

How the data were processed

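Messenger RNA was sequenced in 1 fertile and 1 sterile bud library. Per the submitters' processing notes, reads were processed with TopHat. No version, build, annotation or counter is given in the sources used here. Expression was deposited by the authors as RPKM values for 41019 genes and 10338 ribosomal RNA features, which were left out here. They also deposited log2 fold changes, p-values and q-values for 1012 genes, per the file headers, and a pathway table with p-values and counts of Arabidopsis genes.

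Whole reads were recovered for the 1012 genes (Python 3.11.15, scipy 1.17.1). For genes at 0 in 1 library, the deposited fold is a fixed multiple of the reads. For the 531 genes above 0 in both, the smallest whole reads within 0.002 that give both RPKM values were taken. The deposited p-value then gave the multiple of those reads in 522 genes, within 0.0012 of a whole number, and it was above 1 in 92 of them, including Bra015979. On data simulated under these same rules, with lengths in steps of 3 bp, the recovery returned exact reads and lengths in 100% of 1101 cases. This checks the computation and cannot show that the deposited values follow those rules. With lengths in steps of 3 bp, the library totals came to 1803154 reads for fertile buds and 1567647 for sterile buds.

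Differences are sterile minus fertile on the log2(RPKM + 1) scale, which understates those of low genes. With 1 library per group no test was run. Intervals are 95% (Poisson for levels, Clopper-Pearson for ratios), and bounds use 3 reads, with the reads in fertile buds taken as exact. Both cover counting error only. The design named the 11 members, the other genes of the pathway entry, further calcium genes, the nearest named genes of PC1, CPK24 and CML41, and copies of a member's code. Genes next to a member by identifier and the unlisted gene nearest under the smallest listed ratio were chosen after their values were seen. The members and lists were chosen with earlier results of these data known. The RefSeq gene table of the assembly CAAS_Brap_v3.01 held none of the 11 identifiers, so no sequence or coordinate is shown. The alternatives tried changed the pseudocount, the scaling, the filter on low values and the size of difference counted.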

Additional observations from a re-analysis of the deposited data

How the results depend on the processing

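No paired analysis was possible because each group had 1 library. All 11 members kept their direction under each alternative tried, which was fixed in advance. A pseudocount or filter cannot reverse a direction, and the scalings were small beside the members' differences. The 10 lower and 1 higher members also passed a difference of 1 with pseudocounts of 0.1 and 5 RPKM, both scalings and both filters, and at a difference of 2 the value of Bra015979 (-1.995) fell just short. The difference of CPK24 was -1.96 with a pseudocount of 5 RPKM. The members' median of -6.27 became -9.58 and -4.13 with the smaller and larger pseudocount, since 7 members are at 0 in sterile buds, and -4.21 as a log2 ratio with those at their bound, an alternative chosen after seeing the data. With the copies of a code summed, also added later, it was -6.27. The background counts depended more on the settings than the members' counts, which the selection of the members largely fixed. The background median moved less than the members' median and stayed between -0.025 and 0.198. The count of all genes lower and higher was 1935 and 987 with a pseudocount of 5 RPKM. It was 2426 and 2011 with RPKM of at least 5, and 1888 and 556 at a difference of 2. Scaling by the median ratio shifted the sterile log2 values by -0.2 and the trimmed mean by -0.23, and 65.8% and 67.3% of the differing genes were then lower, against 55.6% as deposited. Genes outside the authors' list carry RPKM values but no name here, so further copies and relatives of the members were not analysed here, and 1 library per group gives no spread between plants.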
